A study of Mus musculus with 2 samples.

Results

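Phgdh, Psat1 and Psph, the genes of the enzymes that make serine from a glycolysis intermediate, were described in single-cell RNA profiles of subcutaneous mouse tumours. They were found by symbol in the gene list of each count matrix, where each symbol had 1 row, so the set holds 3 of 32285 genes. The tumours came from mice on a control diet (1 library) or on a diet free of serine and glycine, labelled -SG (1 library, the -SG library). The tumour line and the strain, age and number of mice are not stated in the labels or files used here, and both groups share the subcutaneous site. The protocol text in the labels speaks of human heart tissue, against the mouse and tumour fields, so its dissociation steps may belong to other material. With 1 library per diet no test was possible, and every diet difference below is a difference between 2 libraries.

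Cells take up serine or make it. PHGDH oxidises 3-phosphoglycerate, taken from glycolysis, in the first step. PSAT1 then moves an amino group from glutamate onto the product, and PSPH removes the phosphate to leave serine. Serine feeds glycine, one-carbon units for nucleotide synthesis, phospholipids and sphingolipids. The transcription factor ATF4, which the amino acid response and other stress pathways turn on, is a known activator of all 3 genes, and many tumour lines express them at a high level.

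In the GENCODE annotation of build GRCm38, which corresponds to the mm10 genome of the submitters' processing notes, the 3 genes lie on the minus strand of different chromosomes. Phgdh (ENSMUSG00000053398) spans chr3:98313170-98339990, Psat1 (ENSMUSG00000024640) spans chr19:15904678-15947337, and Psph (ENSMUSG00000029446) spans chr5:129765558-129787449. The first 452 bases of Psph overlap Cct6a on the opposite strand, and no label or file used here says whether counting used strand. The processed pseudogene Phgdh-ps1 on chromosome 7 has no row of its own in the matrices.

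Promoters are shown because the 3 genes moved together between tumour cells that differ in ATF4 target levels, as described further on. RefSeq (GRCm38.p6) gave 1 start for Phgdh and Psph and 2 for Psat1. In the 250 bases before each start, both strands were searched for CCAAT, the box bound by NF-Y and C/EBP factors, for TGATGNAA, the composite element of ATF4 and C/EBP factors, and for CACGTG, the E-box bound by MYC and USF factors. Phgdh, Psph and the upstream start of Psat1 each held 2 CCAAT matches, and the downstream start of Psat1 held 0. Of 32851 promoters searched the same way, 33.8% held at least 1 CCAAT match and 10.1% held at least 2. TGATGNAA had 0 matches in these promoters and was present in 3.45% of all promoters. CACGTG also had 0 matches, against 6.02% of all promoters. A match describes letters only, and a window without one says nothing of a factor's binding elsewhere. Each CCAAT match, in capitals, is printed within 30 bases on the minus strand that the genes are read from. In Psph it reads ATTGG because the box lies on the other strand:
Phgdh, chr3:98340145-98340174, 193 bases before the start: ttctgtttatttCCAATataaatcagcctg
Phgdh, chr3:98339975-98340004, 23 bases before the start: aagcatttctgaCCAATcaaaaggagactg
Psat1, chr19:15925078-15925107, 36 bases before the start: tagtgagcgtggCCAATagggaggggagct
Psat1, chr19:15925048-15925077, 6 bases before the start: tctgagcgagagCCAATcagtgagcggcct
Psph, chr5:129787314-129787343, 78 bases before the start: cagagcacctccATTGGgtggcgaccctcc
Psph, chr5:129787284-129787313, 48 bases before the start: tgccgcccgctgATTGGcttaatccaacgc
The match of Phgdh nearer to its start and that of Psat1 nearer to its start touch an annotated exon of the gene. Both stretches of Psph lie in a Psph exon that begins before the RefSeq start, and in an exon of Cct6a.

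After filtering, 13477 control cells and 17881 cells of the -SG library were used, with 159388494 and 140042802 unique molecular identifiers (UMIs, tags that mark single captured RNA molecules). Median depth was 11278 UMIs per control cell and 7039 per cell of the -SG library. The libraries shared 62 barcodes among kept cells, 0.460% of those of the control library. Classes were assigned cell by cell from marker genes. Presumed tumour cells, defined by Hmga2 and Rhox5 in cells that met no leukocyte or endothelial marker limit, numbered 10551 and 12617. Single such markers could be present, and cells that also met the fibroblast limit counted as presumed tumour. Monocyte/macrophage-like cells numbered 1415 and 1752, T-like cells 459 and 1353, and NK-like cells 161 and 202. The other classes held between 16 and 320 cells per library. Presumed tumour cells carried Ptprc, the pan-leukocyte gene, at 1.16 and 2.49 CPM (UMIs scaled to a total of 1000000), whereas monocyte/macrophage-like cells had 362 and 458 CPM. The word tumour rests on Hmga2 and Rhox5, which were at 2054 and 632 CPM in control cells and 1985 and 622 CPM in those of the -SG library.

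Levels are UMIs summed over the cells of a class and scaled to CPM. Intervals are exact 95% intervals and cover counting error only, not differences between mice. In such sums a lower level can mean fewer expressing cells or less RNA per cell.

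Presumed tumour cells had the highest level of each of the 3 genes in both libraries. Phgdh stood at 296 CPM (293 to 299) in the control library and 292 CPM in the -SG library. Psat1 stood at 91.5 CPM (90.0 to 93.1) and 109 CPM. Psph stood at 117 CPM in both libraries. The lead over the next class exceeded counting error for Psph in both libraries, for Psat1 in the control library and for Phgdh in the -SG library. It did not where the next class was one of few UMIs: control B/plasma-like cells for Phgdh (4 UMIs) and neutrophil-like cells of the -SG library for Psat1 (5 UMIs).

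**Figure D1:**
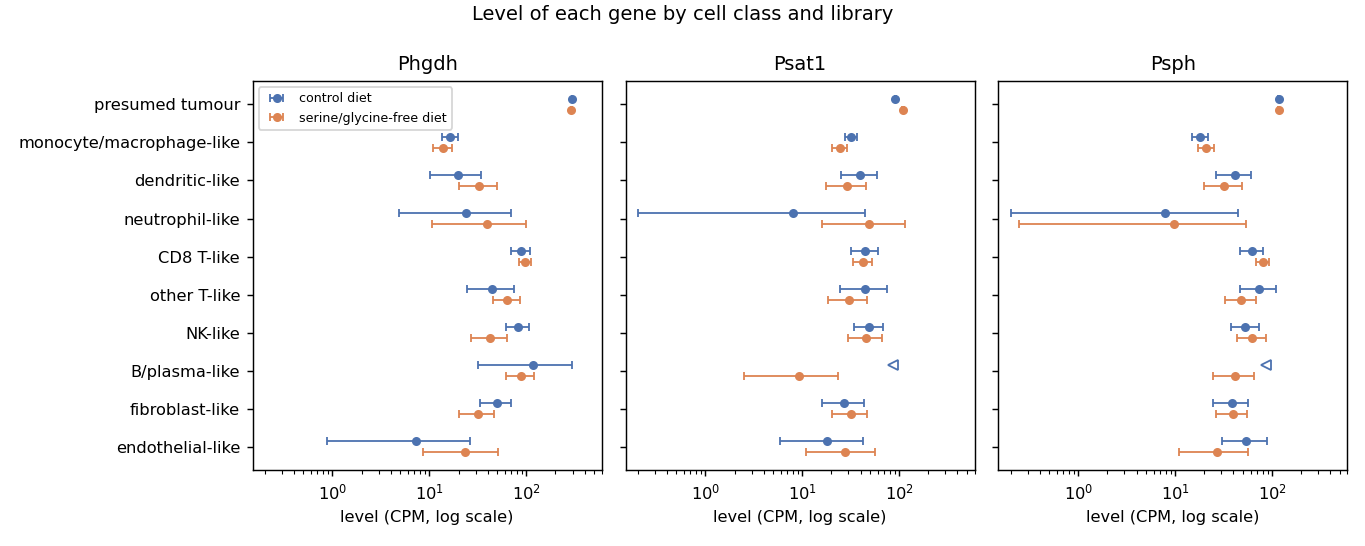
Level of Phgdh, Psat1 and Psph (CPM, log axis) in each cell class of the control library (blue) and the -SG library (orange). Points are UMIs summed over the cells of a class, bars are exact 95% counting intervals, and open triangles mark classes with 0 UMIs at the level that 3 UMIs would give. Presumed tumour cells lie highest in every panel, with Phgdh at 296 and 292 CPM.

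Among leukocytes, lymphocytes carried more Phgdh than macrophages. T-like cells had 77.1 CPM (62.2 to 94.4) in the control library and 88.6 CPM (77.5 to 101) in the -SG library. The T-like cell with most Phgdh UMIs held 10 of 93 in the control library and 5 of 230 in the -SG library. CD8 T-like cells, those with a Cd8a or Cd8b1 UMI, had 88.6 and 97.3 CPM, and the other T-like cells had 44.5 and 63.3 CPM. B/plasma-like cells of the -SG library had 87.3 CPM (61.8 to 119.8). Monocyte/macrophage-like cells had 16.4 CPM (13.4 to 19.7) and 13.8 CPM (10.9 to 17.2), which is 5.53% and 4.71% of the level in presumed tumour cells. In the same macrophages, 12 genes typical of the tumour cells summed to 2.05% and 4.39% of their tumour level, and 1 and 0 of the 12 were at 0. Single genes of the 12 lay between 0 and 9.51% in the control library and between 1.70% and 11.3% in the -SG library. Some of the 12 are not particular to tumour cells, as given below for fibroblast-like cells. In the -SG library the Phgdh share of macrophages lay close to the summed share of the 12 genes. In T-like cells the 12 summed to 5.01% and 5.83%, beside Phgdh shares of 26.0% and 30.3%. The part of carried-over tumour RNA was not tested.

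For Psat1 too, monocyte/macrophage-like cells had lower values than T-like and NK-like cells, but lay closer to them than for Phgdh. Monocyte/macrophage-like cells had 32.0 CPM (27.8 to 36.6) in the control library and 24.3 CPM (20.5 to 28.8) in the -SG library. These are 34.9% and 22.4% of the tumour level, far above the 2.05% and 4.39% of the tumour-typical genes. T-like cells had 44.8 and 38.9 CPM and NK-like cells 48.7 and 45.6 CPM, with intervals that overlap within and between these classes. B/plasma-like cells of the -SG library had 9.19 CPM (2.50 to 23.5), from 4 UMIs. In the control library the 16 B/plasma-like cells had 0 Psat1 UMIs, where 3 UMIs would be 86.8 CPM and the exact 95% interval reaches 107 CPM, so this is no measurement of absence.

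For Psph, T-like cells again stood above macrophages. T-like cells had 64.7 CPM (51.1 to 80.7) and 72.1 CPM (62.1 to 83.2), which is 55.1% and 61.6% of the tumour level. NK-like cells had 52.9 and 62.0 CPM, fibroblast-like cells 38.3 and 39.1 CPM, and dendritic-like cells 41.1 and 32.3 CPM. Neighbours in this order did not differ beyond counting error, apart from fibroblast-like over monocyte/macrophage-like cells in the control library. Monocyte/macrophage-like cells were low in Psph, at 18.2 and 20.8 CPM. Endothelial-like and neutrophil-like cells gave between 1 and 15 UMIs of any of the 3 genes per library and were too few to place. Carry-over could not be read from the summed list in fibroblast-like cells, because Ogn and Aspn of the tumour-typical list are fibroblast genes too. Lama2, Sorcs2 and Gpr39 of that list also stood above their tumour level there in both libraries. The rest of the list lay between 0 and 27.9% (Tenm4) of the tumour level in the control library. In the -SG library it lay between 0 and 36.5% (Cldn9), and Krt20 was at 3.23% and 6.02%. The part of carry-over in this class was not tested. From few UMIs, Sorcs2 was at 60.0% and 139% of its tumour level in NK-like cells. In B/plasma-like cells of the -SG library it was at 175%.

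The balance between the enzymes differed by class. A ratio of UMIs of 2 genes within a class has no meaning as a level, but it can be compared between classes. Psat1 UMIs per Phgdh UMI were 0.309 (0.303 to 0.315) in presumed tumour cells of the control library and 0.372 (0.364 to 0.379) in those of the -SG library. The ratio was 1.95 (1.54 to 2.48) and 1.77 (1.33 to 2.37) in monocyte/macrophage-like cells. T-like cells lay between, at 0.581 (0.407 to 0.821) and 0.439 (0.344 to 0.557). B/plasma-like cells of the -SG library had 0.105 (0.0273 to 0.292), below the presumed tumour cells. Macrophages thus carried proportionally more Psat1, and B/plasma-like cells proportionally more Phgdh, beyond counting error. Psph per Phgdh followed the first part of this order, with 0.396 and 0.400 in presumed tumour cells, 0.839 and 0.813 in T-like cells, and 1.11 and 1.51 in monocyte/macrophage-like cells.

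Detection in single tumour cells was read at like depth. When each presumed tumour cell was thinned to 3000 UMIs, Phgdh had a UMI in 51.2% of 10482 control cells and 48.8% of 12330 cells of the -SG library. Psat1 had a UMI in 20.9% and 23.4%, and Psph in 26.1% and 25.3%. Unthinned, the shares were 84.6%, 56.0% and 64.2% in control cells for Phgdh, Psat1 and Psph. Thinned to 1000 UMIs, so that monocyte/macrophage-like cells could be set beside them, Phgdh had a UMI in 22.4% of control tumour cells and 1.22% of control macrophages, and Psat1 in 7.40% and 3.30%. Median depth was 12880 UMIs in control tumour cells and 4173 in control macrophages. The genes were found in the same cells more often than their separate shares multiply to. Phgdh and Psat1 met in 12.7% of thinned control cells against a product of 10.7%, and in 14.1% against 11.4% in the -SG library. Within cycling cells, defined further on, they met in 18.8% (17.4 to 20.3) against 17.5% in the control library, an interval that includes the product. In the -SG library it was 21.4% (20.2 to 22.7) against 20.1%. Outside the cycling group the values were 10.3% against 8.39% and 10.4% against 7.84%.

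Diet was compared next, class by class. In presumed tumour cells the log2 ratio of the -SG over the control library was -0.02 for Phgdh (-0.04 to 0.00), 0.25 for Psat1 (0.21 to 0.28) and 0.00 for Psph (-0.04 to 0.03). A gene was counted as higher or lower when it had at least 100 UMIs over both libraries and a log2 ratio of at least 0.5 in size. By this rule 0 of the 3 genes differed, while 5.35% of the 13417 genes with enough UMIs were higher and 4.90% lower. The median ratio over all these genes was 0.03.

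**Figure D2:**
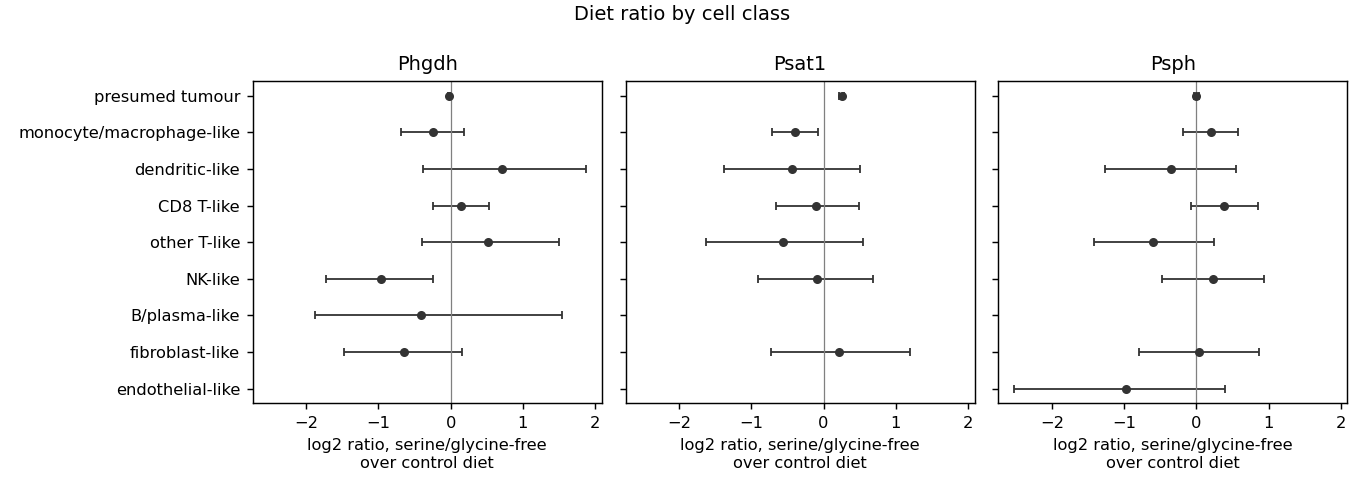
Log2 ratio of CPM, -SG over control library, for each gene and cell class with at least 20 UMIs in all and 1 or more in each library. Points are ratios of summed UMIs, bars are exact 95% counting intervals, and the vertical line marks no difference. Presumed tumour cells lie at -0.02, 0.25 and 0.00, and the intervals of most small classes cross the line.

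Depth per cell moved with both diet and the 3 genes. Presumed tumour cells had a median of 12880 UMIs in the control library and 8922 in the -SG library. Within a library, the deepest cells had more of each gene per UMI than the shallowest. Phgdh in control cells went from 199 CPM in cells under 5000 UMIs to 348 CPM in cells of 20000 or more, and in the -SG library from 103 to 355 CPM. Psat1 went from 49.7 to 127 CPM and from 33.3 to 134 CPM, and Psph from 70.5 to 139 CPM and from 39.2 to 132 CPM.

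The diet ratios differed between bands of cells of like depth. In cells under 5000 UMIs (356 and 1797 cells) all 3 genes were lower in the -SG library, with log2 ratios of -0.95 (-1.15 to -0.74) for Phgdh, -0.58 (-0.98 to -0.16) for Psat1 and -0.85 (-1.19 to -0.49) for Psph, where 6.58% of all genes tested were lower. In cells of 5000 to 10000 UMIs (2464 and 5739 cells) Psat1 stood at 42.3 CPM in the control library and 80.0 CPM in the -SG library, a log2 ratio of 0.92 (0.81 to 1.03). In cells of 10000 to 20000 UMIs (6233 and 4535 cells) it stood at 88.2 and 132 CPM, a ratio of 0.58 (0.54 to 0.63). Psat1 was the 1 gene of the 3 past the 0.5 limit in these middle bands, where 7.86% and 7.81% of all genes tested were higher. Phgdh had ratios of 0.25 and 0.19, and Psph 0.31 and 0.19. In cells of 20000 UMIs or more (1498 and 546 cells) the ratios were 0.03 for Phgdh, 0.07 (0.00 to 0.15) for Psat1 and -0.07 for Psph, none past the limit, against 3.62% of genes higher. When each library was instead split at its own median depth, Psat1 had 0.20 in the shallower and 0.23 in the deeper cells. Phgdh had -0.20 and 0.02, and Psph -0.14 and 0.02. The share of cycling cells also differed within bands. From the shallowest band to the deepest it was 4.70%, 20.0%, 55.2% and 74.2% in the -SG library against 14.3%, 9.33%, 28.6% and 59.7% in the control library, so cells of 1 band are not otherwise alike. The part of depth in the diet ratios was not tested. The 4 bands and the split at the median were chosen after the data were seen.

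**Figure D3:**
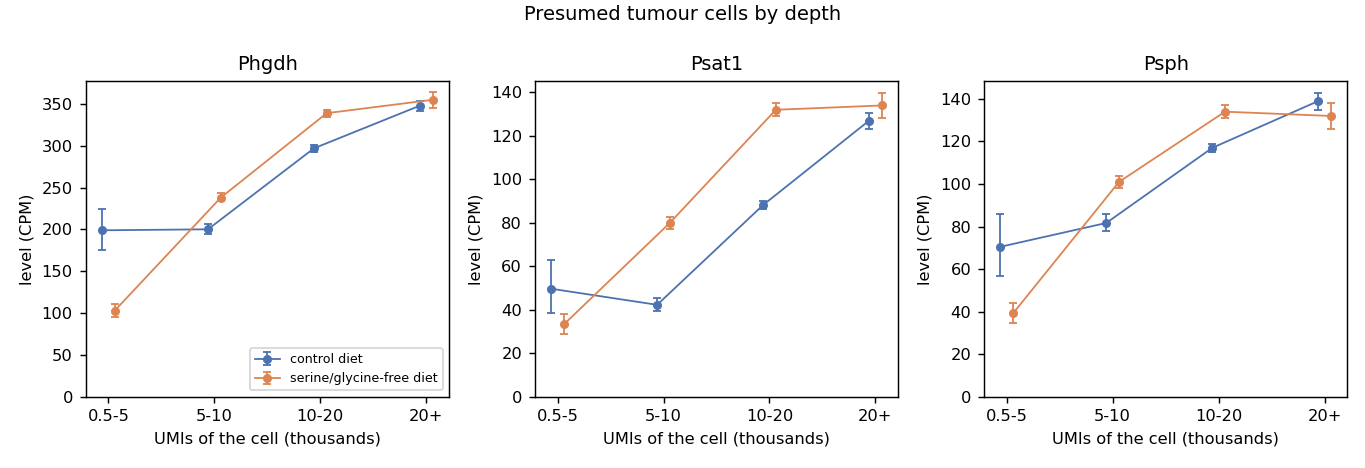
Level of each gene (CPM) in presumed tumour cells grouped by UMIs per cell (axis in units of 1000) for the control (blue) and -SG (orange) libraries. Points are summed UMIs of the cells in a band and bars are exact 95% counting intervals. From 5000 to 20000 UMIs the orange points lie above the blue ones, as for Psat1 at 132 against 88.2 CPM, below 5000 UMIs they lie under them, and in the deepest band they lie close together.

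Outside the tumour cells, the intervals of the diet ratios included 0, apart from Psat1 in monocyte/macrophage-like and Phgdh in NK-like cells. In monocyte/macrophage-like cells Psat1 was at 32.0 CPM from 213 UMIs in the control library and 24.3 CPM from 138 UMIs in the -SG library, a log2 ratio of -0.39 (-0.71 to -0.08). Phgdh had -0.25 (-0.69 to 0.18) and Psph 0.20 (-0.18 to 0.57) there. By the rule above 0 of the 3 genes differed, against 3.62% of 8669 genes higher and 3.53% lower. In T-like cells the ratios were 0.20 for Phgdh (-0.15 to 0.56), -0.20 for Psat1 (-0.69 to 0.30) and 0.16 for Psph (-0.23 to 0.56). Again 0 of 3 passed, against 4.60% of 5762 genes higher and 4.13% lower. NK-like cells held 59 and 23 Phgdh UMIs, at 82.1 and 42.0 CPM, a ratio of -0.97 (-1.73 to -0.25). This gene had under 100 UMIs there and was not counted, and with classes taken from clusters its ratio was -0.29 (-0.86 to 0.28). Dendritic-like and fibroblast-like cells had intervals that include 0 for all 3 genes.

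Genes around the pathway were read in presumed tumour cells by the same rule. Their lists were fixed together with the 3 genes, with earlier results of these data known. Of all genes tested, 5.35% were higher and 4.90% lower. The serine-use list also holds genes of glycine cleavage and of folate metabolism. Of its 17 genes with enough UMIs, 0 were higher and 1 lower, with a median log2 ratio of 0.02 beside 0.03 over all genes. The lower one was Gldc, the glycine-cleaving decarboxylase, at 1.97 and 0.633 CPM. Sptlc1, of sphingolipid synthesis, had the next lowest ratio, -0.13, and the highest were 0.44 for Sdsl, a serine dehydratase-like gene, and 0.32 for Serinc3. Shmt2 and Mthfd2, which turn serine into glycine and one-carbon units in mitochondria, stood at 106 and 109 CPM and at 180.0 and 183 CPM. Of 9 transporters, 0 were higher and 1 lower, with a median of -0.06. Slc38a4 was the lower one, at 17.0 and 11.3 CPM. Slc6a9, a glycine transporter, had -0.29, and at the other end stood Slc38a1 with 0.27 and Slc36a1 with 0.20.

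Of the 9 genes that supply precursors, 1 was higher and 0 lower, with a median of 0.09. Pgk1, the glycolytic enzyme whose product is 3-phosphoglycerate, the substrate of PHGDH, stood at 703 CPM in the control library and 1187 CPM in the -SG library, a ratio of 0.76. Gapdh followed with 0.47, and at the low end stood Got1 with -0.13 and Gpt2 with -0.25. Of 13 hypoxia genes, which include glycolysis-linked Pdk1 and Slc2a1, 9 were higher and 0 lower, from 1.25 for Ddit4 and 1.14 for Ankrd37 to 0.31 for P4ha1 and 0.16 for Vegfa. Of 15 interferon genes, 10 were higher and 0 lower, from 1.33 for Iigp1 and 1.06 for Gbp4 to 0.28 for Psmb8. Their median ratios were 0.58 and 0.79. Over all genes tested the median was 0.03, and 5.35% were higher and 4.90% lower. These lists too were chosen with earlier results of these data known, so their counts only describe.

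The list of regulators and ATF4 targets held no gene counted as higher. Of its 27 genes, 0 were higher and 2 lower, with a median of -0.08, against 5.35% of all genes tested higher and 4.90% lower. Nupr1 stood at 328 and 193 CPM, a ratio of -0.77, and Ddit3, which encodes the stress factor CHOP, at 185 and 118 CPM, a ratio of -0.64. Vldlr and Cebpb were at the upper end, both with 0.47. Atf4 itself had 360.3 and 309 CPM, a ratio of -0.22, and Asns, the asparagine synthetase gene, 283 and 267 CPM.

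Between cells of 1 library, the 3 genes went with ATF4 targets. Presumed tumour cells were called high when they had at least 5 UMIs of 11 targets (Asns, Trib3, Chac1, Ddit3, Sesn2, Aars, Gars, Sars, Wars, Nars and Nupr1) after thinning to 3000 UMIs, and low with at most 2. In the control library Phgdh stood at 369.8 CPM in 3817 high cells and 210.2 CPM in 3709 low cells, a log2 ratio of 0.82 (0.78 to 0.85). Psat1 had 109.9 and 69.2 CPM, a ratio of 0.67, and Psph had 160.5 and 73.8 CPM, a ratio of 1.12. In the -SG library, with 3169 high and 5696 low cells, the ratios were 0.92, 0.77 and 1.17. All 3 genes passed the 0.5 limit in both libraries, where 3.33% and 2.99% of all genes tested were higher. High cells were deeper, with medians of 13496 against 11894 UMIs and 10185 against 7979.5 UMIs. Among cells of 10000 to 20000 UMIs alone, where medians were 13721 against 13583 UMIs and 12643 against 12453 UMIs, the ratios were 0.76, 0.58 and 1.04 in control cells and 0.70, 0.50 and 0.96 in the -SG library. In control cells outside the cycling group the ratios were 0.91, 0.85 and 1.14, and in those of the -SG library 1.05, 0.95 and 1.31. The depth band and the restriction to non-cycling cells were chosen after the data were seen.

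Hypoxia and interferon panels went the other way. Cells high in hypoxia genes (at least 3 UMIs of 3000) had less Phgdh than cells with at most 1, at 257 against 313 CPM in the control library and 248 against 325 CPM in the -SG library. The log2 ratios were -0.28 and -0.39 for Phgdh, -0.41 and -0.45 for Psat1, and -0.16 and -0.27 for Psph. None reached 0.5 in size, against 5.56% and 6.85% of all genes lower. Hypoxia-high cells were less often cycling, 18.3% against 34.2% and 25.2% against 40.3%, and in cells outside the cycling group Phgdh had -0.28 and -0.42. Cells high in interferon genes had Psph at 91.7 against 136 CPM in the control library, a ratio of -0.57, and 104 against 129 CPM in the -SG library, a ratio of -0.31. Psph in the control library was the 1 value of these past the limit, against 2.43% of genes lower there and 2.93% in the other library. Phgdh had -0.33 and -0.13 and Psat1 -0.37 and -0.10. Among cells of 10000 to 20000 UMIs, hypoxia-high cells had ratios of -0.27 and -0.28 for Phgdh, -0.34 and -0.37 for Psat1, and -0.08 and -0.16 for Psph. Interferon-high cells of the same band had -0.30 and -0.06 for Phgdh, -0.25 and -0.02 for Psat1, and -0.55 and -0.27 for Psph, and the interval of Psat1 in the -SG library included 0 (-0.10 to 0.06).

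**Figure D4:**
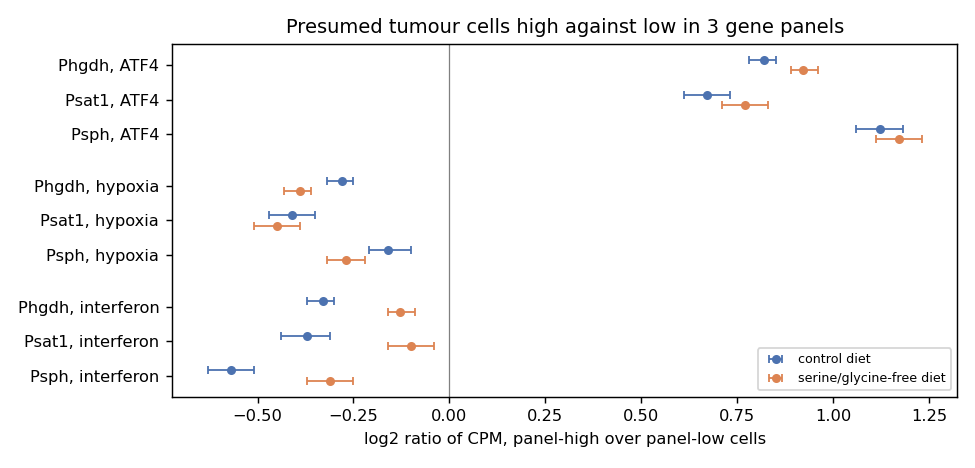
Log2 ratio of CPM between presumed tumour cells high and low in ATF4 targets, hypoxia genes and interferon genes, for the control (blue) and -SG (orange) libraries. Points are ratios of summed UMIs and bars are exact 95% counting intervals, and the vertical line marks no difference. All 3 genes lie right of the line for ATF4 targets (0.67 to 1.17) and left of it for the other panels.

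Cycling tumour cells were compared with the rest within each library. A cell was called cycling with at least 6 UMIs of a 16-gene G2/M panel after thinning to 3000 UMIs, which gave 2948 of 10482 control cells (28.1%) and 4127 of 12330 cells of the -SG library (33.5%). The limit cuts a continuous range: 586 and 698 cells lay within 1 UMI of it. Mki67, a panel gene, was at 394 and 28.2 CPM in cycling and other control cells.

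Psat1 was higher in cycling cells, at 125 CPM (122 to 128) against 73.0 CPM (71.3 to 74.8) in the control library and 143 against 82.9 CPM in the -SG library. Both log2 ratios were 0.78 (0.73 to 0.83). Phgdh had 333 against 276 CPM, a ratio of 0.27 (0.25 to 0.30), and 338 against 258 CPM, a ratio of 0.39 (0.36 to 0.42). Psph had 119 against 117 CPM, a ratio of 0.03 (-0.02 to 0.07), and 125 against 111 CPM, a ratio of 0.17 (0.13 to 0.22). Psat1 alone of the 3 passed the 0.5 limit, in both libraries, where 11.0% and 9.96% of all genes tested were higher. The one-carbon genes Shmt2 and Mthfd2 had ratios of 0.77 and 0.69 among control cells and 0.77 and 0.90 in the -SG library.

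Along the panel the genes differed in shape. Psat1 climbed from 63.1 CPM in control cells without a panel UMI to 129 CPM at 12 to 23 UMIs and 130.1 CPM at 24 or more. Phgdh went from 256 CPM to 351 CPM at 6 to 11 UMIs and was 310.4 CPM at 24 or more. Psph went from 112 CPM to 133 CPM at 6 to 11 UMIs and 100.2 CPM at 24 or more. At the same 3 steps the -SG library had Phgdh at 220.4, 358 and 296 CPM and Psph at 100.2, 134 and 106 CPM. Cells with at least 6 UMIs of a 16-gene S-phase panel (genes of DNA replication) and no G2/M call had Phgdh at 336 and 359.7 CPM, against 266 and 234 CPM in cells with neither call. In these S-phase cells Psat1 stood at 105 and 124 CPM, against 68.0 and 73.1 CPM.

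**Figure D5:**
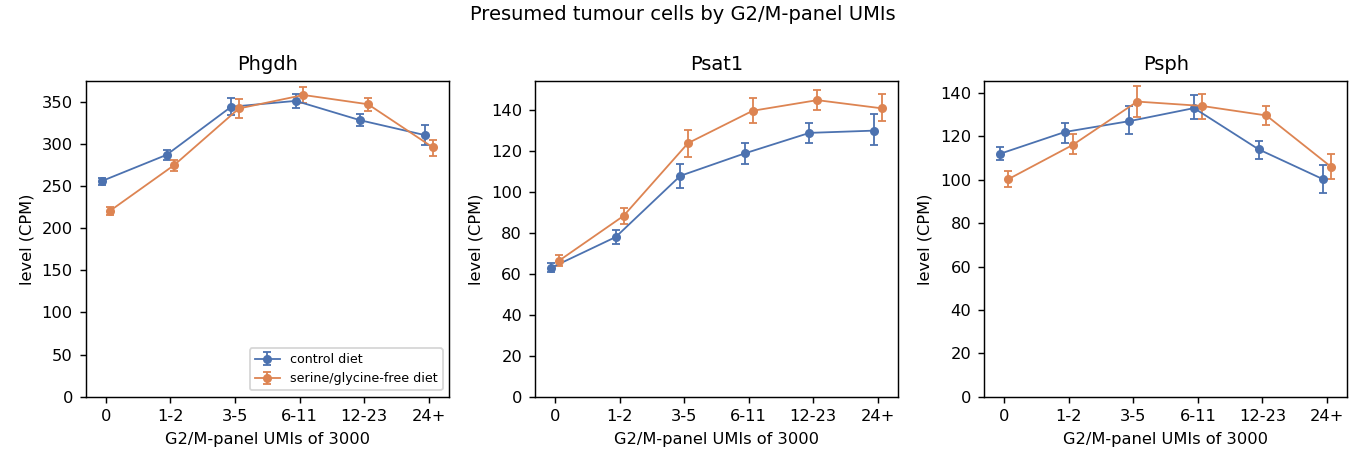
Level of each gene (CPM) in presumed tumour cells grouped by UMIs of the G2/M panel among 3000, for the control (blue) and -SG (orange) libraries. Points are summed UMIs of the cells in a step and bars are exact 95% counting intervals. Psat1 levels off near 130.1 and 141 CPM, and Phgdh and Psph are lower at 24 or more panel UMIs than at 6 to 11.

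Cycling cells were deeper, with medians of 16897.5 against 11727 UMIs in the control library and 12155 against 7837 in the -SG library. In cells of 10000 to 20000 UMIs the ratio of Psat1 was 0.56 and 0.40, that of Phgdh 0.13 and 0.07, and that of Psph -0.19 and -0.14. Psat1 was thus under the 0.5 limit in the -SG library, and Psph was below 0 in both libraries. With the S-phase panel in place of the G2/M panel Psat1 had 0.41 and 0.44, under the limit in both libraries. With cells weighted equally or thinned to 3000 UMIs, Phgdh had 0.55 in the -SG library, past the limit. In cells of 5000 to 10000 UMIs Psat1 had 1.16 and 0.89. The part of depth in these ratios was not tested.

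Diet ratios within the cycling group and outside it were close for Psat1, 0.19 (0.14 to 0.23) and 0.18 (0.13 to 0.23). Phgdh had 0.02 in cycling and -0.09 in other cells, and Psph 0.08 and -0.07. The difference between these ratios has no test with 1 library per diet.

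The leukocyte classes could be split only at a shallower depth, with at least 2 panel UMIs of 1000, a limit chosen after the data were seen. Cycling T-like cells (75 and 220 cells) had Phgdh at 128 CPM (93.2 to 172) against 58.9 CPM (43.6 to 77.9) in the control library and 132 against 77.1 CPM in the -SG library. Psat1 in the same cells stood at 75.8 against 33.7 CPM and 68.7 against 25.9 CPM, and Psph at 78.7 against 60.1 CPM and 83.0 against 67.6 CPM. The groups lay apart beyond counting error for Phgdh and Psat1 in both libraries and for Psph in neither. Cycling monocyte/macrophage-like cells (173 and 191 cells) had Psat1 at 59.5 CPM against 26.0 CPM in the control library and 34.9 CPM against 22.6 CPM in the -SG library. The log2 ratios of Psat1 were 1.19 (0.76 to 1.61) and 0.63 (0.00 to 1.22), the latter from 31 UMIs in cycling cells. Phgdh in these macrophages stood at 24.3 against 14.7 CPM, a log2 ratio of 0.73 (0.06 to 1.36), in the control library and at 12.4 against 13.9 CPM, -0.17 (-1.24 to 0.76), in the -SG library. The ratios of Psph were 0.27 and 0.39, with intervals that include 0. Cycling cells were deeper here as well, with 4166 against 1955 UMIs in control T-like cells and 6664 against 4044 in control macrophages, and the part of depth was not tested.

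The genes most like each of the 3 were found over 14 profiles, 7 classes in each library, by Pearson correlation of log2(CPM + 10) among 6899 genes. The profiles share 2 libraries and differ in depth, so the values only describe. Neutrophil-like cells, 1 of the 7 classes, gave between 1 and 5 UMIs of each of the 3 genes per library. Their weight in these correlations was not tested. Cenpf, a kinetochore gene, was most like Phgdh (r = 0.929), followed by Dph5, Hsp90aa1, Lyar and Adss. Odc1, the first enzyme of polyamine synthesis, was most like Psat1 (r = 0.951), followed by Rfc3, Nip7, Ipo7 and Esf1. Adss, an enzyme of AMP synthesis, was most like Psph (r = 0.969), followed by Eif3h, Cbx5, Naca and Smc3. Correlations among the 3 genes were lower, at 0.813 for Phgdh with Psph, 0.80 for Phgdh with Psat1 and 0.774 for Psat1 with Psph.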

How the data were processed

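Per the file headers and the submitters' processing notes, the authors made the deposited matrices with Cell Ranger; the headers give version 7.0.1 and the notes 2.2.2 with the mm10 genome. The deposited values are raw UMI counts per gene and barcode, 14774 barcodes in the control and 20662 in the -SG library. Annotation release, intron and strand handling are not stated in the labels or files used here.

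Cells with at least 500 UMIs, 300 genes and at most 20% mitochondrial UMIs were kept, and Scrublet (scanpy 1.11.5) removed 682 and 2431 cells as doublets, against 11.3% and 16.2% of cells expected, so doublets may remain. Classes needed at least 3 marker-panel genes and 10 panel UMIs per 10000. Presumed tumour cells needed at least 2 UMIs and 5 per 10000 of Hmga2 and Rhox5. Mixed cells were left out. UMIs were summed per class and library, with exact Poisson intervals for CPM and exact binomial intervals for ratios (numpy 2.4.6, scipy 1.17.1, pandas 2.3.3). The ratio intervals were run on simulated Poisson counts. These hold no spread between cells or mice, so the run checks the calculation only. UMIs in different cells of a library are no replicates, so no p-value was computed. From each pathway list the 2 highest and 2 lowest ratios were to be named; Shmt2, Mthfd2, Atf4, Asns, Pdk1, Slc2a1 and Mki67 were named in addition for their roles, after values were seen, and 1 gene that the rule names is not reported here. Panel-high and panel-low cells lie at or beyond the 75th and 25th percentile over both libraries. The 3 genes and all lists were chosen with earlier results of these data known. Doublet removal, mitochondrial limit, gates, clustering (20 Leiden clusters), weighting, scaling, thinning and the cycling limit were varied.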

Additional observations from a re-analysis of the deposited data

Results flagged for a closer look

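Psat1 went in opposite directions between the libraries in 2 classes. Its log2 ratio, -SG over control, was 0.25 (0.21 to 0.28) in presumed tumour cells and -0.39 (-0.71 to -0.08) in monocyte/macrophage-like cells. In presumed tumour cells under 5000 UMIs the ratio was -0.58 (-0.98 to -0.16). Each class has 1 library per diet, so this difference between classes was not tested.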

How the results depend on the processing

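Of 207 values recomputed under other settings, 116 stayed within the counting interval of the reported value and 89 left it. The other 2 had the opposite sign to a reported value whose interval excludes 0. In all, 13 values, rounded to 2 decimals, had the opposite sign, 11 of them where the reported interval includes 0. All recomputed values of leukocyte and stromal classes were among the 116, whose wide intervals make this a weak check. The cause of the moves was not tested. The values below are log2 ratios.

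For diet in presumed tumour cells, weighting cells equally gave -0.10 for Phgdh, 0.21 for Psat1 and -0.08 for Psph. Scaling without mitochondrial and ribosomal-protein genes gave -0.06, 0.20 and -0.05. Thinning to 3000 UMIs gave -0.09 for Phgdh and -0.04 for Psph. Of the settings chosen after the data were seen, cells of 5000 to 10000 UMIs gave 0.25, 0.92 and 0.31, cells of 10000 to 20000 UMIs 0.19, 0.58 and 0.19, the shallower cells of each library -0.20, 0.20 and -0.14, and the deeper cells 0.02 for Phgdh. Cells under 5000 UMIs gave -0.95, -0.58 and -0.85, so Psat1 was reversed there, and cells of 20000 UMIs or more 0.03, 0.07 and -0.07. The signs of all 3 genes differed between bands of depth.

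For cycling against other control cells (Phgdh, Psat1, Psph), cells of 5000 to 10000 UMIs gave 0.70, 1.16 and 0.24, and cells of 10000 to 20000 UMIs 0.13, 0.56 and -0.19. Equal weighting gave 0.36, 0.89 and 0.09, thinning 0.36, 0.90 and 0.08, and a limit of 12 panel UMIs 0.16, 0.68 and -0.11. A limit of 3 panel UMIs gave 0.33 for Phgdh and 0.84 for Psat1, the S-phase panel 0.41 for Psat1, and the other scaling 0.23 for Phgdh and -0.02 for Psph.

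In the -SG library, cells of 10000 to 20000 UMIs gave 0.07, 0.40 and -0.14, the last against a reported 0.17, and cells of 5000 to 10000 UMIs gave 0.89 for Psat1 and 0.10 for Psph. Equal weighting gave 0.55, 0.99 and 0.32, thinning 0.55, 1.03 and 0.24, a limit of 12 panel UMIs 0.25, 0.62 and 0.07, a limit of 3 panel UMIs 0.48, 0.88 and 0.25, and the S-phase panel 0.44, 0.44 and 0.25. The other scaling gave 0.35 for Phgdh. Keeping doublets gave 0.36 for Phgdh and 0.71 for Psat1.

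For cells high against low in the ATF4, hypoxia and interferon panels, 24 of 36 values in cells outside the cycling group or of 10000 to 20000 UMIs moved by more than their interval, and 0 changed sign.

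No paired analysis was possible because each diet has 1 library. Depth limits classes of few cells: with 0 UMIs in control B/plasma-like cells, 3 UMIs would be 86.8 CPM and the exact 95% interval reaches 107 CPM.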

Other observations

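Gldc, the decarboxylase that starts glycine cleavage, was higher in T-like than in presumed tumour cells. T-like cells carried it at 72.9 CPM in the control library and 129 CPM in the -SG library, a log2 ratio of 0.83 (0.49 to 1.18), while presumed tumour cells had 1.97 and 0.633 CPM. It was the 1 of 11 genes of the serine-use list counted as higher in T-like cells, and 0 were lower. Of all genes tested in T-like cells, 4.60% were higher and 4.13% lower.

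In monocyte/macrophage-like cells 3.53% of all genes tested were lower and 3.62% higher in the -SG library. Of 21 regulators and ATF4 targets with enough UMIs, 0 were higher and 5 lower, and 8 of the 21 ratios lay above 0, with a median log2 ratio of -0.13 beside -0.02 over all genes. Aldh18a1, which starts proline synthesis from glutamate, had 13.1 and 6.53 CPM, and Nupr1 had 101 and 58.9 CPM. Of 7 transporters, 1 was higher (Slc36a1, 20.6 and 32.3 CPM) and 2 lower (Slc38a2, 126 and 85.0 CPM, and Slc1a5, 29.6 and 19.6 CPM). Of 12 genes of the serine-use list, 0 were higher and 1 lower, with a median of -0.07. Within cycling macrophages Psat1 had a log2 ratio of -0.77 (-1.43 to -0.14), and in the others -0.21 (-0.58 to 0.17). Median depth in this class was 4173 UMIs in the control and 2964.5 in the -SG library, and its part was not tested.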
